A study of Mus musculus with 90 samples.

Results

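The MHC class II antigen presentation genes described here were 7 mouse genes: H2-Aa, H2-Ab1 and H2-Eb1, Cd74, Ciita, and H2-DMa and H2-DMb1. They were found by their Entrez identifiers (14960, 14961, 14969, 16149, 12265, 14998 and 14999 in that order) among the 20414 genes of the expression matrix, and all 7 were present. The mice were C57BL/6 females aged 10 weeks per the labels (C57BL/6J and another age in the study's methods), grouped into estrus and diestrus by vaginal cytology, with no treatment beyond that. For each phase 3 mice gave 15 tissues: aorta, vein, brown adipose tissue (BAT), white adipose tissue (WAT), heart, kidney, liver, muscle, stomach, duodenum, cerebrum, hypothalamus, ovary, uterus (labelled Womb) and spleen. This made 90 libraries, 3 for each tissue and phase and 6 for each tissue.

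MHC class II molecules are heterodimers that carry peptides from endocytosed proteins to the cell surface, where CD4+ T cells read them. H2-Aa and H2-Ab1 encode the alpha and beta chains of I-A, and H2-Eb1 encodes the beta chain of I-E, whose alpha chain is not made in C57BL/6 mice. New class II dimers are held by the invariant chain, the product of Cd74, which fills the groove until proteases remove all but a short fragment. H2-DM, a dimer of the H2-DMa and H2-DMb1 products, then exchanges that fragment for peptide. Ciita is the coactivator that the class II promoters need; it does not bind DNA itself but is recruited by RFX, CREB and NF-Y on the X and Y boxes. B cells, dendritic cells and many macrophages carry class II at rest, and interferon-gamma induces Ciita and class II in epithelium and other cells.

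The matrix header did not name its unit, and the values were taken as FPKM, reads scaled by transcript length and library size, from their 2 decimals and from library sums that differed (353706 to 623534). On that reading levels of different genes may be compared per length. The depth, approximated from the smallest steps of 980 short genes, was about 8530000 to 16600000 reads in 89 libraries. In these, 2404 to 4820 genes were listed at 0. Of near-equal fits the lowest was taken, since 2 times the depth fits as well, so these depths serve only to compare libraries. The study's methods state a higher number of reads generated for each sample. BAT estrus replicate 3 stood apart, with about 72400 reads and 12048 genes at 0. Of the members, Ciita, H2-DMa and H2-DMb1 were listed at 0 in it, so BAT values are given with and without that library. By tissue means the defining markers were highest in the labelled tissue for all but vein. There Myh11 of smooth muscle came second after aorta, and Pln (1.87 to 6.84 FPKM) came after 4 other tissues. Single libraries overlapped for some markers. Gkn1 was 4098 to 7495 FPKM in stomach and reached 7108 elsewhere, and Apoa1 was 5477 to 9394 in liver and reached 11148 elsewhere. In aorta Eln was 57.4 to 1239 and Myh11 190.5 to 1669, and they reached 401.5 and 668 elsewhere. In whole tissue, fewer cells of a type and less RNA per cell cannot be told apart.

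The X and Y boxes are shown first because they are the letters through which Ciita acts on these genes. Promoter sequences of RefSeq on GRCm38.p6 were looked up for the members other than Cd74, and were at hand for 4 of the 7 members. A pair of motif cores was searched on both strands: GNAAC, the start of the X box, followed after 20 to 35 bases by GATTGG, the core of the Y box, which is an inverted CCAAT box. The letters searched were chosen with these promoters in view. Counted on either strand of the whole window, the pair stood in 0.922% of 32851 promoter windows of 300 bases. GATTGG, with or without the pair, stood in 16.1%. These shares come from a wider search than that of the named genes. It was found in H2-Aa (chr17:34287855-34287916, minus strand), H2-Eb1 (chr17:34305764-34305824, plus strand) and H2-DMb1 (chr17:34153085-34153146, plus strand). It was also found in H2-Oa (chr17:34092291-34092352, plus strand) and H2-Ob (chr17:34238806-34238864, plus strand), which encode the H2-O chains that inhibit H2-DM, and in H2-Eb2. H2-Oa and H2-Ob are printed because their tissue pattern, given further on, was unlike that of the members. Each window runs 5′ to 3′ on the strand of the gene, with both cores in capitals.
H2-Aa: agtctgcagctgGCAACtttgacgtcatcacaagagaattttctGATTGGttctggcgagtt
H2-Eb1: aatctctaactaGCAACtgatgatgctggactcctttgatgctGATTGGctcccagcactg
H2-DMb1: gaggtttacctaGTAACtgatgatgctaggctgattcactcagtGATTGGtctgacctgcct
H2-Oa: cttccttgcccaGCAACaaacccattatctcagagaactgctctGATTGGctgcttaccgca
H2-Ob: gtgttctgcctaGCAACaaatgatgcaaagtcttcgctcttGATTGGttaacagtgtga
In the 3 members 26 or 27 bases lay between the cores, and GATTGG began 49 bases before the start site in H2-Aa, 60 in H2-Eb1 and 62 in H2-DMb1. Neither start of H2-DMa held the pair on the strand of the gene before the start site. The window of 1 of them held GATTGG on either strand. H2-DMb2, which is not a member, likewise held GATTGG without the pair in that search. For these genes the pair on the other strand was not looked at. For H2-Ab1 and Ciita no promoter sequence was at hand, and that of Cd74 was not looked up.

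The chains of class II were highest in spleen and next in duodenum. The level of H2-Aa was 1611 ± 95.2 FPKM in spleen and 723 ± 226 in duodenum (mean ± SD, n = 6 for every tissue), and it then fell to 218 ± 39.3 in WAT, 179 ± 121 in vein and 134 ± 104.96 in aorta. From kidney (93.4 ± 12.3) through heart, uterus, ovary and stomach to BAT (74.7 ± 19.1, or 82.0 ± 7.14 in 5 libraries without estrus replicate 3), 6 tissues lay close together. Liver (52.3 ± 18.4) and muscle (26.3 ± 5.35) were lower. Hypothalamus (4.27 ± 2.15) and cerebrum (2.63 ± 1.12) stood far beneath, with spleen at 377 and 611 times their means. The partner chain H2-Ab1 followed the same course, at 1389.9 ± 76.5 FPKM in spleen, 756 ± 235 in duodenum, 189 ± 37.0 in WAT and 2.08 ± 0.287 in cerebrum. H2-Eb1 did so at a lower level, at 637 ± 39.4 FPKM in spleen, 207 ± 31.3 in duodenum, 91.3 ± 16.8 in WAT and 1.03 ± 0.364 in cerebrum.

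**Figure D1:**
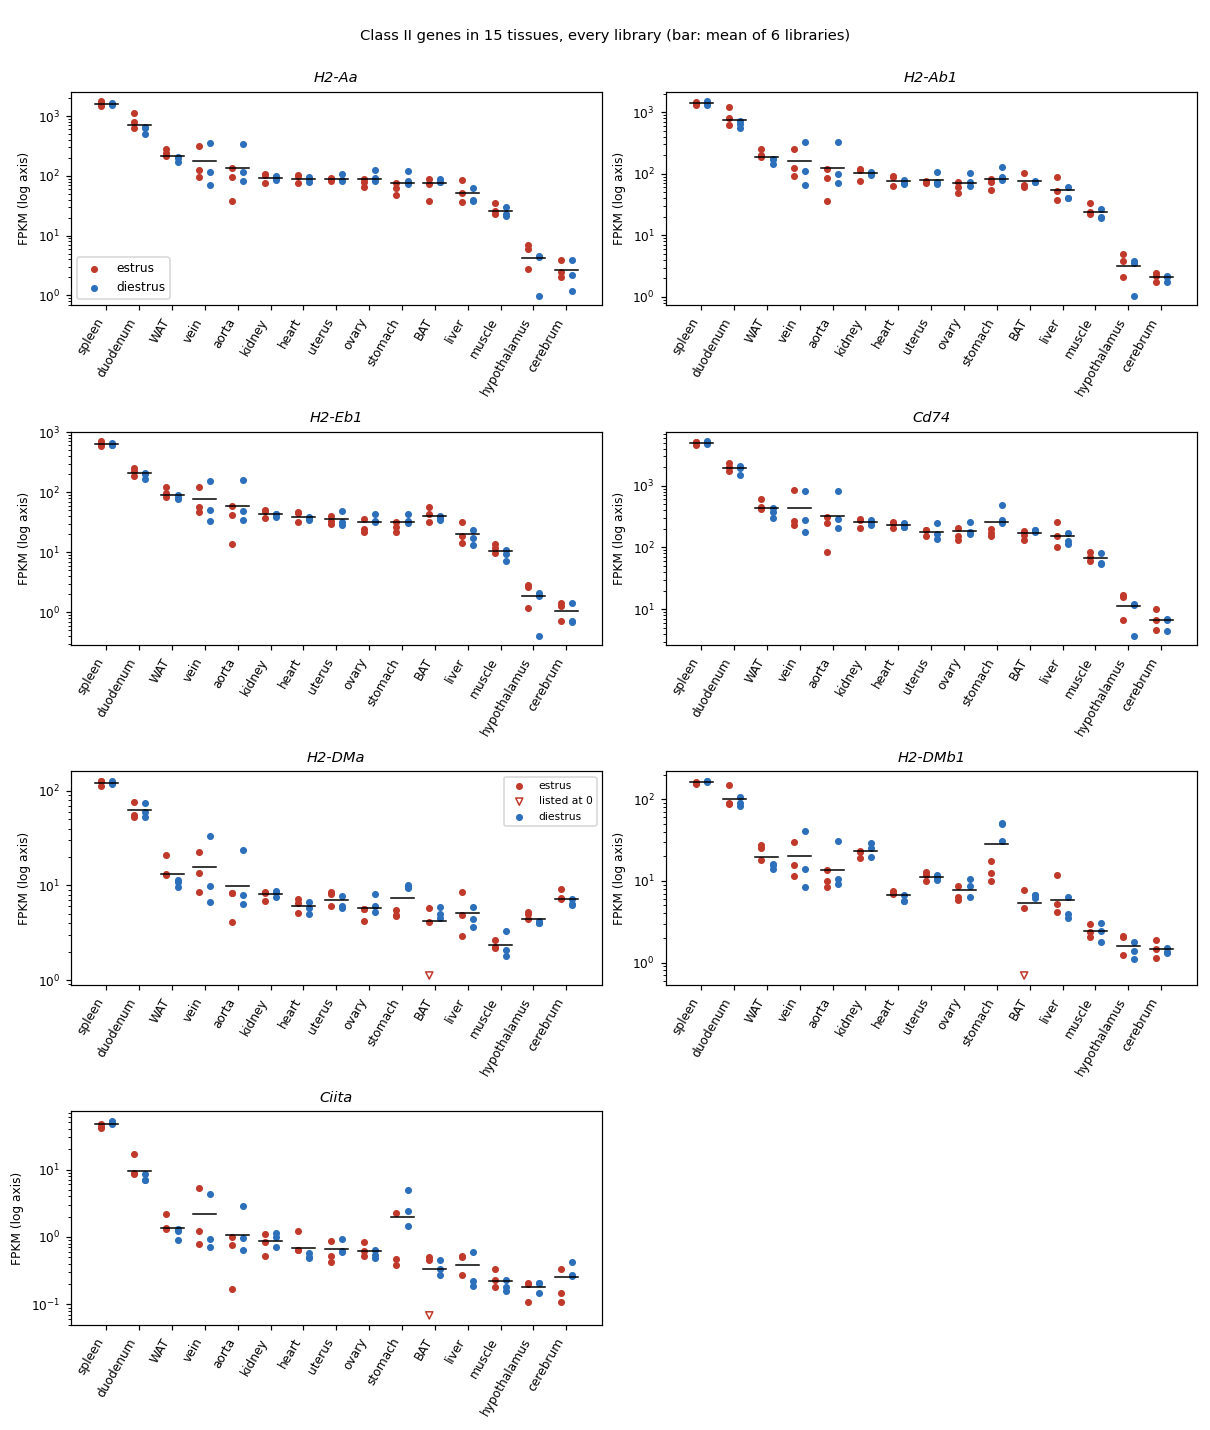
FPKM of each gene (y, log axis) in the 6 libraries of each of 15 tissues (x, ordered by the mean of H2-Aa), with estrus in red, diestrus in blue, the mean as a bar and open triangles for libraries listed at 0. Spleen is highest and duodenum second for all 7 genes, and H2-DMa does not fall in cerebrum and hypothalamus as the chains and Cd74 do.

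The neighbours in this order were mostly not separable. Tissues were compared in pairs by limma, and a pair was called where means of log2(FPKM + 1) differed by at least 1 with an adjusted p of at most 0.05 over all genes. For H2-Aa 3 of the 14 steps between neighbours were called: spleen over duodenum, duodenum over WAT, and muscle over hypothalamus. H2-Eb1 had the same 3 steps. H2-Ab1 had duodenum over WAT, liver over muscle and muscle over hypothalamus. The step from spleen to duodenum was 1.204 log2 units for H2-Aa (limma, adjusted p = 1.5e-04), 1.63 for H2-Eb1 (adjusted p = 1.3e-07) and, under the fold limit, 0.93 for H2-Ab1 (adjusted p = 0.00155). Over all genes 4.45% of such steps were called, and in 11.1% the ranges of the neighbours did not overlap, as in 4, 4 and 3 of the 14 steps of H2-Aa, H2-Ab1 and H2-Eb1. Spleen and duodenum libraries did not overlap for any of the 7 members.

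Cd74, the invariant chain, had the highest level per length of the 7 genes in 14 tissues. The exception was cerebrum, where its 6.57 ± 2.07 FPKM lay beside 7.28 ± 1.11 for H2-DMa. Its level was 4959 ± 302 FPKM in spleen, 1943 ± 315 in duodenum, 438 ± 312 in vein, 434 ± 106 in WAT, 67.8 ± 13.3 in muscle and 11.2 ± 5.20 in hypothalamus. Of its steps between neighbours 4 of 14 were called, among them spleen over duodenum by 1.37 log2 units and duodenum over vein by 2.42 (limma, adjusted p = 2.5e-05 and 2.6e-11). Within a library the ratio of Cd74 to H2-Aa had similar medians in all tissues, although single libraries of cerebrum spread from 1.68 to 5.87. Its median was lowest in WAT (2.00, range 1.73 to 2.19) and ovary (2.02, 1.80 to 2.35) and highest in stomach (3.27, 2.63 to 4.04) and spleen (3.08, 2.90 to 3.23). The ranges of WAT and spleen did not overlap.

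The chains also kept close to each other. The median ratio of H2-Aa to H2-Ab1 lay between 0.924 in kidney and 1.26 in ovary in all tissues. The ratio of H2-Eb1 to H2-Aa had its lowest median in duodenum, 0.319 with a range of 0.223 to 0.358, against 0.399 (0.384 to 0.401) in spleen. These 2 ranges did not overlap, so duodenum held relatively less H2-Eb1. In the shallow library BAT estrus replicate 3 it was 1.497, outside the range of the other BAT libraries.

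The H2-DM genes departed from the chains. H2-DMa had 122 ± 6.23 FPKM in spleen, 62.0 ± 10.5 in duodenum, 15.8 ± 10.3 in vein and 13.2 ± 4.12 in WAT, an order like that of the chains. Cerebrum, last for H2-Aa, ranked eighth for H2-DMa, with 7.28 ± 1.11 FPKM beside 7.34 ± 2.54 in stomach and 7.08 ± 1.23 in uterus. In the 3 estrus libraries of cerebrum H2-DMa read 7.46, 7.28 and 9.26 FPKM and in the 3 of diestrus 6.18, 6.30 and 7.21. H2-Aa in the same libraries read 2.02, 2.50 and 3.96, then 1.18, 3.98 and 2.17. In every cerebrum library H2-DMa was the higher of the pair, with a ratio of H2-DMa to H2-Aa of 1.58 to 5.24. In hypothalamus that ratio was 0.741 to 4.01, while in the other 13 tissues no library exceeded 0.125.

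Cerebrum minus muscle, the log2 difference was -2.95 for H2-Aa, -3.01 for H2-Ab1, -2.48 for H2-Eb1 and -3.20 for Cd74, but 1.30 for H2-DMa. All 5 were called (limma, adjusted p from 5.9e-16 for Cd74 to 9.1e-06 for H2-DMa). In that pair 35.4% of all genes were called higher in cerebrum and 11.3% higher in muscle. H2-DMb1 (1.45 ± 0.258 FPKM in cerebrum, 2.43 ± 0.486 in muscle) was not called. Rescaling each library to the same total raised all genes in cerebrum by 0.53 log2 units against spleen, and in hypothalamus by 0.43, beside differences, cerebrum minus spleen, of -8.85 for H2-Aa and -9.40 for Cd74.

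H2-DMb1, the beta chain of H2-DM, was highest in spleen (161 ± 4.78 FPKM) and duodenum (101 ± 25.2), and next in stomach (28.6 ± 18.4) and kidney (23.2 ± 3.83), ahead of vein and WAT. The ratio of H2-DMb1 to H2-DMa had medians of 3.32 in stomach (1.80 to 5.39) and 2.82 in kidney (2.22 to 3.46), 0.205 in cerebrum (0.154 to 0.241) and 0.373 in hypothalamus (0.248 to 0.463). In the other 11 tissues its medians ran from 1.04 in muscle to 1.596 in uterus, and no library there exceeded 2.09. Kidney did not overlap any of them. Heart minus stomach, the log2 difference of H2-DMb1 was -1.70 (limma, adjusted p = 1.5e-07), while none of the other 6 members was called; 20.4% of all genes were called higher in stomach. H2-DMb2 is a near copy of H2-DMb1 and reads could be split between them. In stomach the ratio of H2-DMb2 to H2-DMb1 did not exceed 0.113, and in spleen it was 1.66 to 2.12.

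**Figure D2:**
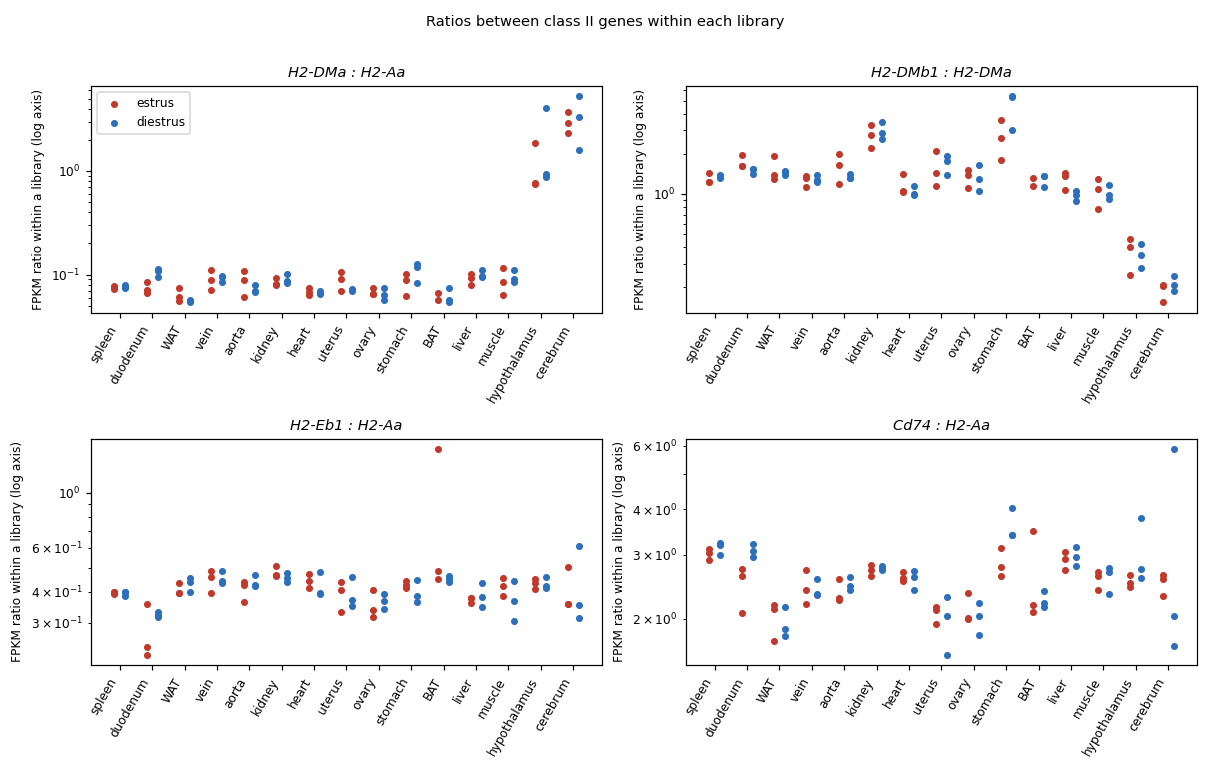
Ratios of FPKM within each library (y, log axes) for 4 pairs of genes over 15 tissues (x), with estrus in red and diestrus in blue; ratios of 0 or without a denominator, in BAT estrus replicate 3, are left out. Cerebrum and hypothalamus stand apart in the ratios with H2-DMa, stomach and kidney are high in H2-DMb1 to H2-DMa, and duodenum is low in H2-Eb1 to H2-Aa.

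Ciita, the coactivator, had the lowest mean of the members in every tissue, and duodenum held less of the spleen level of Ciita than of any other member. Its level was 46.9 ± 4.07 FPKM in spleen, 9.46 ± 3.75 in duodenum, 2.21 ± 2.04 in vein, 1.98 ± 1.68 in stomach and 1.37 ± 0.421 in WAT, and its mean was at most 1.07 in the other 10. That share was 20.2% for Ciita, against 32.5% for H2-Eb1, 39.2% for Cd74, 44.9% for H2-Aa, 54.4% for H2-Ab1, 51.0% for H2-DMa and 62.7% for H2-DMb1. The step from spleen to duodenum was 2.25 log2 units and the step from duodenum to vein 1.87, both called (limma, adjusted p = 4.1e-15 and 4.1e-12), and no other step of Ciita was. H2-Aa stood at a median of 34.3 times Ciita in spleen (30.6 to 38.2) and 164 times in WAT (130.4 to 184.9).

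Over every pair of the 15 tissues, 427 of 735 member comparisons were called, with 37.6% of all genes' comparisons called as background. H2-DMb1 was called in 74 pairs, H2-Eb1 in 71, H2-Aa in 68, Cd74 in 67, H2-Ab1 in 66, H2-DMa in 46 and Ciita in 35. Spleen was called higher in 95 of its 98 member comparisons (26% over all genes) and lower in 0 (18%). Duodenum was called higher in 91 of 98 (18.7%) and lower in 4 (20.3%), all against spleen. At the other end hypothalamus was called lower in 72 (17.1%), muscle in 71 (33.2%) and cerebrum in 70 (19.8%). Since 3 mice of a phase gave all 15 tissues and the labels do not tie libraries to a mouse across tissues, the fit took the libraries of a mouse as independent; this holds for the average over tissues and the interaction too.

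The members were alike over the tissues. Pearson's r of log2(FPKM + 1) over the 15 tissue means ranged from 0.742 (H2-Ab1 with H2-DMa) to 0.998 (H2-Aa with H2-Ab1) over the 21 pairs, with a median of 0.907. Among the chains and Cd74 no pair was under 0.992. Deviations of single libraries from their group mean, over 89 libraries without BAT estrus replicate 3, gave 0.944 to 0.950 among H2-Aa, H2-Ab1, H2-Eb1 and Cd74, and as low as 0.557 for H2-Aa with Ciita. These points share libraries and mice and are a description. The 10 genes most like the mean of the 7 members over tissues were Ccl5 (r = 0.965), Gvin1, Nkg7, Cd3g, Birc3, Trim12a, Cd52, Irak4, Lyn and Il2rg (r = 0.922). Of these Ccl5, Nkg7 and Cd3g are known from T and NK cells, and Cd52 and Il2rg from lymphocytes at large. By single-library deviations the 5 most alike were Ctss (mean r = 0.752), Itgb2, Irf8, Selplg and Itgb7, genes of leukocytes. Ctss encodes cathepsin S, which trims the invariant chain.

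Among 10 further genes of the class II pathway, 4 were nearly limited to spleen. H2-DMb2 had 317 ± 27.3 FPKM in spleen and 20.4 ± 31.6 in duodenum, H2-Oa 117 ± 8.76 and 7.76 ± 12.2, H2-Ob 201 ± 16.3 and 10.7 ± 18.7, and H2-Eb2 26.3 ± 2.35 and 3.14 ± 5.38. In duodenum the library estrus replicate 1 carried these means: H2-Ob read 48.6 FPKM there and 1.01 to 7.68 in the other 5, and H2-DMb2 83.9 against 2.36 to 16.7. H2-O is best known from B cells. Lysosomal processing genes were spread more widely. Ifi30, a thiol reductase that unfolds antigens, had 355 ± 44.3 FPKM in spleen, 229 ± 49.0 in duodenum and 216 ± 36.4 in stomach. Ctss had 296 ± 20.1 in spleen, 117 ± 29.7 in duodenum and 37.2 ± 2.99 in hypothalamus, where the chains were near their lowest. Ctsl was highest in ovary (448 ± 78.6) and Lgmn in kidney (388 ± 47.9). Marchf1, a ubiquitin ligase that removes class II from the surface, had 30.5 ± 4.34 in spleen, 7.49 ± 0.627 in cerebrum and 7.44 ± 0.338 in hypothalamus, and Marchf8, a related ligase, was highest in kidney (36.6 ± 1.82). Between spleen and duodenum 7 of the 10 were called higher in spleen and 1 in duodenum, beside 4 and 0 of the 7 members and 25.5% and 15% of all genes.

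Of 13 regulators, 8 were called higher in spleen than in duodenum (25.5% of all genes) and 0 lower (15%). Factors of interferon response and of lineage were close to the members over tissues: Irf8 (r = 0.905 with the member mean; 130.3 ± 4.52 FPKM in spleen, 45.6 ± 6.23 in duodenum), Irf1 (0.896; highest in duodenum, 113 ± 19.8, with 82.7 ± 5.89 in spleen) and Spi1 (0.811; 86.1 ± 5.99 in spleen, 10.6 ± 3.79 in liver). The box-binding factors were expressed broadly. Rfx5 of the RFX complex had 28.2 ± 2.29 FPKM in spleen and 12.6 ± 0.416 in hypothalamus, and its r was 0.338. For Rfxank r was 0.608, for Rfxap -0.529, for Nfya 0.584, for Nfyb -0.096, for Nfyc 0.339 and for Creb1 0.376. Irf4 had 0.665 and Socs1, an inhibitor of interferon signalling, 0.676.

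Single libraries of aorta, vein and duodenum carried large amounts of other markers. In aorta H2-Aa read 38.0, 95.6 and 136 FPKM in the estrus libraries and 80.8, 117 and 337 in the diestrus libraries. The summed B cell markers were 2.65, 7.91 and 20.5, then 13.3, 13.2 and 53.3, and the summed lymph node markers (Ccl21a, Cxcl13, Glycam1 and Chst4) were 17, 16.0 and 20.4, then 19.6, 29.2 and 612. Diestrus replicate 3 was thus the highest in the members and in both lists; all 8 B cell markers were above 0 in it.

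In vein H2-Aa read 124, 95.6 and 313 FPKM in the estrus libraries and 69.7, 118 and 352 in the diestrus libraries. Replicate 3 of either phase was high, but these libraries differed in B cell markers. The estrus one had 227 FPKM of B cell markers against 5.11 and 7.26 in the other estrus libraries, and 131 of T cell markers against 7.65 and 9.94. The diestrus one had 5.77 of B cell markers, within the range of the other diestrus libraries (5.71 and 8.12), and 845 FPKM of the 10 interferon-gamma response genes against 192 and 340.0. So a similar level of H2-Aa came with many B cell markers in 1 library and with few in the other. The T cell and interferon sums are each given for only 1 of these libraries and do not set them apart. The part of these lists in the level was not tested.

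In duodenum the B cell markers summed to 589, 76.2 and 108 FPKM in the estrus libraries and 25.1, 45.2 and 26.0 in the diestrus libraries. Every estrus library lay above every diestrus one, and estrus replicate 1 far above all others. The H2-Aa level of that library, 623 FPKM, was within the range of the others (498 to 1145), and its Ciita level, 16.9, was above all of theirs (6.90 to 8.80). H2-Aa was highest in estrus replicate 2, at 1145 FPKM, where B cell markers were at 76.2. Duodenum also had 2061 to 3683 FPKM of the 4 epithelial markers, against 4.62 to 6.19 in spleen.

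**Figure D3:**
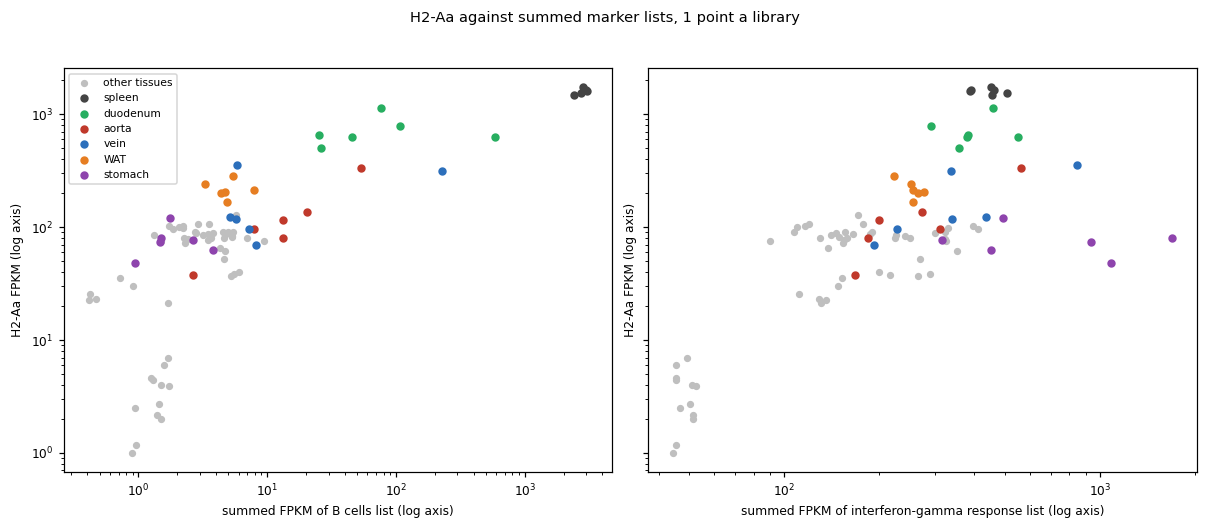
H2-Aa in FPKM (y, log axis) against the summed FPKM of 8 B cell markers (left x) and of 10 interferon-gamma response genes (right x, both log axes), 1 point for each library; BAT estrus replicate 3, without B cell markers, is missing on the left. Vein and aorta each hold libraries over 300 FPKM of H2-Aa beside others near 100. The largest interferon sums of stomach, in diestrus replicate 3 and estrus replicate 2, come with H2-Aa at 81.0 and 48.4 FPKM.

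Estrus and diestrus were compared within each tissue by limma on log2(FPKM + 1). Of the combinations of member and tissue 96 were tested; Ciita had a mean under 1 FPKM in BAT, cerebrum, heart, hypothalamus, kidney, liver, muscle, ovary and uterus and was left out there. None of the 96 was called, where 0.00108% of all tests in the 15 tissues were. At an unadjusted p under 0.05 there were 8 of 96, 4 higher and 4 lower in estrus (limma; 7.84% of all tests). The smallest adjusted p was 0.291, for H2-DMa in hypothalamus. The 3 values of one phase all lay above those of the other in 10 of the 96, 7 with estrus above (5.66% over all genes) and 3 with diestrus above (9.31%). The counts at an unadjusted p and with estrus above were near the background shares, and the count with diestrus above was under it. Within a tissue the members mostly shared a sign: all tested members had the higher mean log2 value in estrus in 7 tissues and the lower in 3 (aorta, ovary and stomach). Members also varied together between single libraries, as given above, so these signs are not independent.

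**Figure D4:**
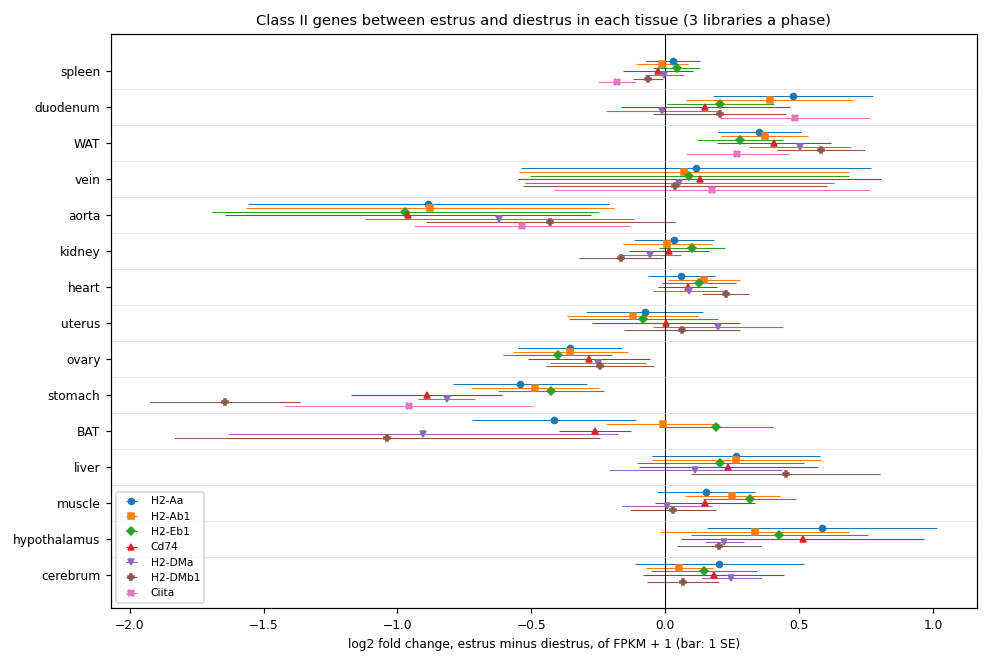
Difference between phases in log2(FPKM + 1), estrus minus diestrus (x, with 1 SE as a bar), of each member in each tissue (y), where tested. All tested members lie on 1 side of 0 in 10 of the 15 tissues; H2-DMb1 in stomach lies lowest, at -1.64, and the bars of aorta and vein are wide.

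In stomach all 7 members had the lower mean in estrus, with a median difference of -0.82 log2 units against -0.02 over all genes. The median was -0.88 in aorta, where all 7 overlapped between the phases. H2-DMb1 read 12.5, 17.6 and 9.96 FPKM in the estrus libraries and 30.4, 50.1 and 51.1 in the diestrus libraries. The lowest diestrus library was well above the highest estrus library, and the diestrus mean was 3.29 times that of estrus. The log2 difference was -1.64 with an SE of 0.28 (limma, unadjusted p = 0.00107, adjusted p = 0.671). H2-DMa, its partner, read 4.73, 4.89 and 5.53 FPKM in the estrus libraries and 10.0, 9.31 and 9.58 in the diestrus libraries. These were close groups that did not overlap, with a difference of -0.82 (SE 0.11; limma, unadjusted p = 2.6e-04, adjusted p = 0.671).

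Cd74 read 202, 151 and 174 FPKM in the estrus libraries and 489, 253 and 276 in the diestrus libraries, again without overlap (-0.89, SE 0.28; limma, unadjusted p = 0.0196, adjusted p = 0.671). For these 3 of 7 members diestrus lay above estrus, as it did for 12% of all genes in stomach, and the same 3 had an unadjusted p under 0.05 (limma; 7.38% of all genes). The chains overlapped. H2-Aa read 76.8, 48.4 and 62.7 FPKM in the estrus libraries and 121, 74.4 and 81.0 in the diestrus libraries, with a difference of -0.54 and an SE of 0.25 (limma, adjusted p = 0.69). Ciita read 0.47, 2.27 and 0.39 in estrus and 1.43, 2.40 and 4.93 in diestrus. Within single libraries the ratio of H2-DMb1 to H2-Aa was 0.162, 0.364 and 0.159 in estrus and 0.251, 0.674 and 0.631 in diestrus, so that H2-DMb1 differed more than the chain and the phases overlapped in the ratio.

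No member of stomach passed the adjusted p when the tissue was fitted alone. In 1 fit of all 90 libraries, which share an estimate of the spread, H2-DMb1 in stomach was called (limma, adjusted p = 0.00867, and 0.00103 without BAT estrus replicate 3). The share of all genes called in stomach by that fit was not computed, so this call stands without a background and cannot be read as particular to H2-DMb1. H2-DMa was not (adjusted p = 0.308). Leaving out any 1 stomach library kept the H2-DMb1 difference between -1.88 and -1.47 log2 units, with the smallest adjusted p, 0.0742 (limma), without estrus replicate 2.

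Other lists in stomach gave the setting of these values. The summed interferon-gamma response genes read 315, 1084 and 451 FPKM in the estrus libraries and 492, 939 and 1689 in the diestrus libraries. These sums overlapped between the phases. Gene by gene, all 10 of that list had the lower mean log2 value in estrus, and 0 were called. Their median difference was -0.68 log2 units against -0.02 over all genes. Of 6 T cell markers 5 had the higher mean log2 value in estrus and 1 the lower. Across the 6 libraries the 3 highest interferon sums, in diestrus replicates 3 and 2 and estrus replicate 2, went with the 3 highest Ciita levels (4.93, 2.40 and 2.27 FPKM). Estrus replicate 2 also had the highest H2-DMb1 level of its phase, 17.6, but the lowest H2-Aa level of all, 48.4. Of 10 class I pathway genes, which present peptides from the cytosol, all had the lower mean log2 value in estrus and 0 were called; Psmb8 and Psmb9 of the immunoproteasome had unadjusted p of 0.0190 and 0.0177 (limma, adjusted p = 0.671). Ifngr2, a chain of the interferon-gamma receptor, read 37.4, 37.5 and 32.0 FPKM in the estrus libraries and 53.6, 53.9 and 52.3 in the diestrus libraries (limma, unadjusted p = 0.00166, adjusted p = 0.671). Jchain of plasma cells likewise did not overlap, 8.55 ± 4.98 against 32.1 ± 17.96 FPKM, nor did Epcam of epithelium, 74.9 ± 20.8 against 124 ± 19.4 (n = 3; limma, adjusted p = 0.671 for both). The parietal cell gene Atp4a ranged from 371 FPKM in estrus replicate 3 to 2058 in estrus replicate 2. B cell markers summed to at most 3.81 FPKM in any stomach library, with Ms4a1 at 0 in 2 of the 6, and macrophage markers to 71.4 to 89.03. The part of these in the class II values was not tested.

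**Figure D5:**
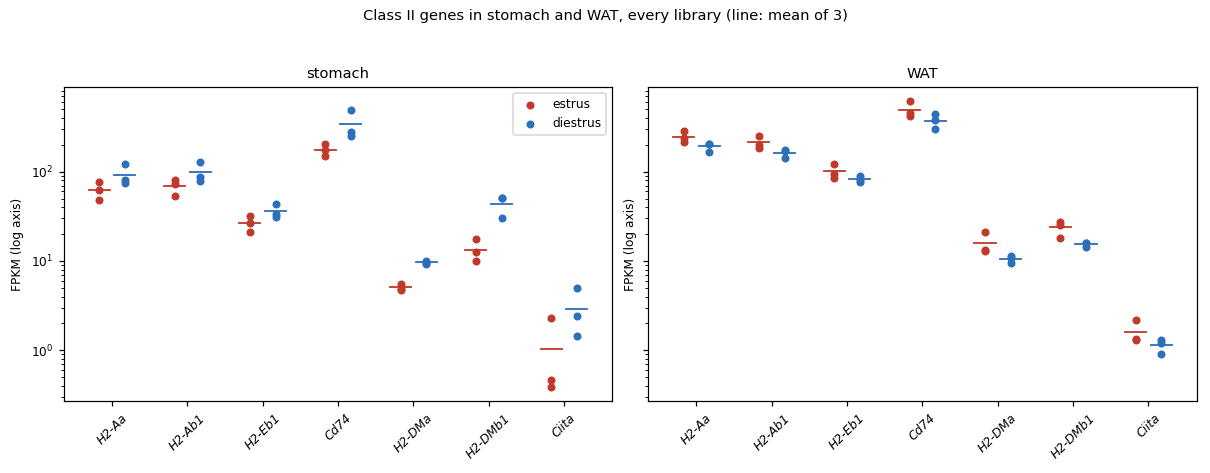
FPKM (y, log axis) of the 7 members (x) in the 3 estrus (red) and 3 diestrus (blue) libraries of stomach and of WAT, with the mean of each phase as a line. In stomach H2-DMb1, H2-DMa and Cd74 of diestrus lie above estrus without overlap, and in WAT H2-Aa, H2-Ab1, H2-DMa and H2-DMb1 of estrus lie above diestrus by less.

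In WAT all 7 members had the higher mean in estrus, with a median difference of 0.37 log2 units against 0.06 over all genes, and none was called. H2-DMb1 read 27.4, 25.6 and 18.2 FPKM in the estrus libraries and 15.9, 14.2 and 15.8 in the diestrus libraries (0.58, SE 0.16; limma, unadjusted p = 0.00852, adjusted p = 0.791). H2-DMa read 21.1, 13.2 and 13.03 against 10.9, 9.61 and 11.3 (0.50, SE 0.19; limma, adjusted p = 0.791). H2-Aa read 283, 240.3 and 213 against 202, 168 and 205 (0.35, SE 0.16; limma, adjusted p = 0.791), and H2-Ab1 likewise did not overlap. That made 4 of 7 members with estrus above, as 9.25% of all genes in WAT, and 2 of 7 had an unadjusted p under 0.05 (limma; 5.97%). Estrus replicate 1 was the highest library for all 7 members, and it also had the most macrophage markers (546 FPKM, others 192 to 291), dendritic cell markers (23.4, others 12.2 to 17.8) and lymph node markers (228, others 1.95 to 60.4). Without it the H2-DMb1 difference was 0.47 and the H2-DMa difference 0.29 log2 units (limma, adjusted p = 0.999 for both).

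In duodenum 6 of 7 members had the higher mean log2 value in estrus and all 7 overlapped. The H2-Aa difference was 0.48 with an SE of 0.30 and that of Ciita 0.49 with an SE of 0.28 (limma, adjusted p = 0.464 and 0.436). Without estrus replicate 1 they were 0.68 and 0.19 (limma, adjusted p = 0.124 and 0.437). All 8 B cell markers had an unadjusted p under 0.05 there, higher in estrus (limma; 13.5% of all genes), none called, 7 of them with estrus above (4.51%), and their median difference was 2.65 log2 units. Their part in the class II values was not tested.

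In aorta all 7 members had the lower mean in estrus, but with wide errors: for H2-Aa the difference was -0.88 with an SE of 0.67 (limma, adjusted p = 0.933). Without diestrus replicate 3 it was -0.29, and that of H2-DMb1 turned from -0.43 to 0.09. Without estrus replicate 1, the lowest aorta library for all 7 members, the H2-Aa difference was -0.36 and that of H2-DMb1 -0.28. In vein the H2-Aa difference was 0.11 with an SE of 0.65 (limma, adjusted p = 0.945), and it was -0.39 without estrus replicate 3 and 0.76 without diestrus replicate 3. In BAT H2-DMb1 differed by -1.04 log2 units with the library of low depth and by -0.10 without it, and H2-DMa by -0.91 and -0.05. H2-Ab1 moved the other way, from -0.01 to -0.25 (limma, adjusted p = 0.126 without it).

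In spleen, the tissue with the highest levels, the libraries lay close together. H2-Aa read 1762, 1478 and 1648 FPKM in the estrus libraries and 1597, 1625 and 1554 in the diestrus libraries, which gave a difference of 0.03 with an SE of 0.10 (limma, adjusted p = 0.978). The 95% interval of -0.21 to 0.27 left out a change of 2-fold in either direction. Ciita read 46.7, 41.9 and 43.1 in estrus and 52.3, 50.7 and 46.6 in diestrus (-0.18, SE 0.07; limma, unadjusted p = 0.0381, adjusted p = 0.93); the phases overlapped by the narrow margin of 46.7 and 46.6. In heart H2-DMb1 (7.24 ± 0.373 against 6.06 ± 0.557 FPKM) and in hypothalamus H2-DMa (4.90 ± 0.414 against 4.05 ± 0.104) had estrus above diestrus, as did H2-DMa in cerebrum (8.0 ± 1.09 against 6.56 ± 0.563), each n = 3 and none called; the shares of all genes with estrus above were 7.91%, 9.96% and 4.92% in that order of tissues.

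In the reproductive organs no member was called or had an unadjusted p under 0.05 (limma). In uterus H2-Aa had 86.3 ± 5.07 FPKM in estrus and 91.6 ± 12.97 in diestrus, and Cd74 179 ± 19.8 and 183 ± 55.8 (n = 3; limma, adjusted p = 0.948 and 0.998). In ovary all 6 tested members had the lower mean in estrus, H2-Aa with 76.9 ± 11.7 against 99.7 ± 24.2 and H2-Eb1 with 27.5 ± 7.36 against 36.2 ± 6.26 FPKM (limma, adjusted p = 0.846 for both). Intervals were wide: for H2-Aa in uterus the 95% interval of the difference was -0.59 to 0.44 log2 units.

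Averaged over the 15 tissues, the phases were close. The difference of the averages was -0.00004 log2 units for H2-Aa, with an SE of 0.10, and the largest was -0.12 with an SE of 0.10 for H2-DMb1. None of the 7 was called, nor had any an unadjusted p under 0.05 (limma, adjusted p from 0.615 to 0.9998), beside 0.00657% and 13.8% of all genes. A test of whether the phase difference varied between tissues called 0 of 7 members, against 3.88% of all genes. H2-DMb1 came nearest (limma, unadjusted p = 0.0215, adjusted p = 0.178, and 0.0731 without BAT estrus replicate 3), and the other 6 had adjusted p of 0.498 and over.

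Over the 15 tissues no gene of the other lists was called between the phases either. Of the further class II genes 98 tests were made, with 9 higher and 2 lower in estrus at an unadjusted p under 0.05, and of the regulators 183, with 2 and 0 (limma; 7.84% over all genes in either direction). The class I pathway had 5 and 3 of 147, the interferon-gamma response 4 and 4 of 141, B cell markers 8 and 0 of 37, dendritic cell markers 3 and 0 of 56, and macrophage markers 4 and 3 of 111. All 8 of the B cell markers were in duodenum, and all 5 of the class I genes in hypothalamus, where 9 of 9 tested had the higher mean log2 value in estrus (13.2% of all genes had such a p there).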

How the data were processed

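Per the labels and the study's methods, reads were filtered with SOAPnuke, aligned with Bowtie2 2.2.5 to GRCm38.p5 and quantified with RSEM 1.2.8; the deposited values per gene were taken as FPKM, which the file header does not name. Symbols came from Entrez identifiers. The members and lists were chosen with earlier results of these data known. Tests were run in limma 3.58.1 (R 4.3.3) with an intensity trend on log2(FPKM + 1), which understates changes of low genes, for genes whose mean reached 1 FPKM, with Benjamini-Hochberg adjustment over all genes. Each tissue was fitted alone for the phases (3 against 3 libraries); tissues, their average and the interaction used 1 fit of 90 libraries with 30 group means. The scripts were tested on simulated data. Likeness was computed with numpy 2.4.6. All 7 members, listed pathway genes and the 10 and 5 genes most alike were named. Replicate numbers did not pair the phases: same-numbered mice were different animals, and of 45 pairs of libraries 8 had deviations with r over 0.1. Alternatives were the pseudocount, filter, scaling, block, a shared fit and left-out libraries.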

Additional observations from a re-analysis of the deposited data

Results flagged for a closer look

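For each member the 6 libraries of a tissue were pooled, and 18 values stood so far from the other 5 that Dixon's test at 95% marks them, where chance marks about 1 in 20 such sets. In aorta diestrus replicate 3 was marked for all 7 members. Cd74 was at 809 FPKM there, Ciita at 2.91, H2-Aa at 337, H2-Ab1 at 326.0, H2-DMa at 23.5, H2-DMb1 at 30.8 and H2-Eb1 at 157. In BAT estrus replicate 3, the library of low depth, H2-Aa was lowest at 37.9 and H2-DMa was listed at 0. In WAT estrus replicate 1 was highest in Ciita at 2.17 and H2-DMa at 21.1. In duodenum estrus replicate 1 was highest in Ciita at 16.9, and estrus replicate 2 in H2-Ab1 at 1204 and H2-DMb1 at 149.8. Single values were Cd74 in stomach diestrus replicate 1 at 489, Ciita in heart estrus replicate 2 at 1.21, H2-Ab1 in uterus diestrus replicate 3 at 106 and H2-DMb1 in liver estrus replicate 3 at 11.8 FPKM.

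For H2-DMa and H2-DMb1 all libraries of one phase lay above the other in opposite directions in different tissues. Over all members, 7 of 96 tests had estrus above (5.66% over all genes) and 3 had diestrus above (9.31%). The share of genes with both directions was not computed, so the pattern is not read as particular to H2-DM. H2-DMa differed, estrus minus diestrus, by -0.82 log2 units in stomach and by 0.50 in WAT, 0.22 in hypothalamus and 0.25 in cerebrum. H2-DMb1 differed by -1.64 in stomach and by 0.58 in WAT and 0.23 in heart. The difference between single tissues was not tested. Over all 15 tissues at once the tissue by phase test gave an adjusted p of 0.608 for H2-DMa and 0.178 for H2-DMb1 (limma).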

How the results depend on the processing

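No member was called between the phases with a pseudocount of 0.1, without the filter, after rescaling every library to the same total, by adjusted p alone, or without any 1 library (0 to 0 calls over 90 settings). With the replicate number as a block (replicate block) it was also 0, with 20 unadjusted p under 0.05 (limma) in place of 8. That block joins different mice of the same number, and the share of all genes under it was not computed. In 1 fit of 90 libraries 2 were called, H2-DMb1 in stomach and H2-DMb1 in BAT (limma, adjusted p = 0.0489), where the library of low depth read 0. Without that library 1 was called. The share of all genes called by this fit was not computed. Between tissues the 427 calls became 408 to 472 in the alternatives, and 412 to 455 with replicates or BAT estrus replicate 3 left out. Of the 4 members called between spleen and duodenum, 3 to 6 were. The average over tissues gave 0 calls throughout. The interaction gave 0, except 1, H2-DMb1 (adjusted p = 0.0343), without aorta diestrus 3, vein estrus 3, vein diestrus 3 and duodenum estrus 1, which were chosen after the data were seen. Spleen first and duodenum second held for all 7 members after rescaling and without BAT estrus replicate 3, and the median r of members over tissues was 0.874 without spleen. Precision was limited by 3 libraries a phase and, for Ciita, by means near or under 1 FPKM in most tissues.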
